A study of Rattus norvegicus with 22 samples.

Results

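Hbegf, Tnfrsf12a and Sdc1 are 3 genes of wound growth factor signaling, and their transcripts were followed here in the cortex of rats with a penetrating ballistic brain injury (PBBI). They were chosen by their response in the injured hemisphere, so their ipsilateral difference between PBBI and sham rats is given as a description, without a test. The 3 genes are 3 of 32545 gene identifiers in the count table, of which 23572 had counts. Their identifiers were ENSRNOG00000018646 for Hbegf, ENSRNOG00000003546 for Tnfrsf12a and ENSRNOG00000059947 for Sdc1.

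Cortical tissue was taken 24 h after surgery from 11 adult male rats of the strain the labels give as Sprague-Daley, from the ipsilateral and the contralateral hemisphere of each. In the 6 PBBI rats a probe was driven into the right frontal pole through a craniectomy and a balloon on it was inflated and deflated within the tissue. The 5 sham rats had the same surgery with no probe put in, and all 11 rats carried electrodes for sleep recording. The 22 samples form 4 groups, which are ipsilateral PBBI (n = 6), ipsilateral sham (n = 5), contralateral PBBI (n = 6) and contralateral sham (n = 5). Rats are named by their numbers in the labels: 81, 83, 85, 88, 90 and 96 had PBBI, and 82, 84, 86, 91 and 94 were sham.

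Heparin-binding EGF-like growth factor, the product of Hbegf, is made as a membrane-anchored precursor, and proteases at the cell surface cut it to release a ligand of the EGF receptor. Fn14, the product of Tnfrsf12a, is a small receptor of the TNF receptor family that binds the cytokine TWEAK, recruits TRAF adaptors and signals to NF-kB, and it is known as a gene that growth factors and tissue injury induce. Syndecan-1, the product of Sdc1, is a transmembrane proteoglycan whose heparan sulfate chains bind growth factors, and metalloproteinases shed its outer part. Syndecan-1 is best known from epithelia and plasma cells, whereas syndecan-3 is the syndecan that neurons mainly carry.

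Total counts ranged from 42085341 to 63412426 per sample. The ipsilateral library of PBBI rat 85 stood apart: it lay at 201.9 on a principal component that held 48.7% of the variance of the ipsilateral samples, and its mean correlation with the other ipsilateral PBBI samples was 0.835 against 0.933 to 0.943 for the rest of that group. The values of this rat are therefore given below by name. The ipsilateral fold changes of Hbegf, Tnfrsf12a and Sdc1, and those of some list genes, are also given without it. No neuron, oligodendrocyte or fibroblast marker of the lists used here could be named in the count table, so the labelled tissue could be checked only by genes of other brain cells: the astrocyte gene Gfap was at 341 CPM or more, the astrocyte gene Gjb6 at 4.13 CPM or more and the microglia gene Tmem119 at 10.4 CPM or more in each of the 22 samples. The titles of both samples of PBBI rat 81 and of the contralateral sample of sham rat 82 carry the letters PFC. The other titles do not, and what this marks is not stated. The contralateral fold changes of Hbegf, Tnfrsf12a and Sdc1 are therefore also given without these samples.

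The promoters of the 3 genes are shown because all 3 genes were higher in the injured cortex, and the letters let a reader see what they do and do not share. Each sequence holds the 250 bases before the RefSeq transcription start in the rat assembly GRCr8, written 5′ to 3′ on the strand of the gene, at chr18:28390221-28390470 (minus strand) for Hbegf, chr10:13213649-13213898 (minus strand) for Tnfrsf12a and chr6:37281791-37282040 (plus strand) for Sdc1. Capitals mark the GC box (GGGCGG) and the CCAAT box (CCAAT), searched on both strands, so that CCGCCC and ATTGG are the same motifs read from the other strand.
Hbegf: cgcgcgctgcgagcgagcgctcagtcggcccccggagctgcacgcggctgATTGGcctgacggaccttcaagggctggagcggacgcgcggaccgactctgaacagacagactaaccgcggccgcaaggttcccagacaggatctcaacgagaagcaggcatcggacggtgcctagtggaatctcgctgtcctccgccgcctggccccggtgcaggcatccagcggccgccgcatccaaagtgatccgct
Tnfrsf12a: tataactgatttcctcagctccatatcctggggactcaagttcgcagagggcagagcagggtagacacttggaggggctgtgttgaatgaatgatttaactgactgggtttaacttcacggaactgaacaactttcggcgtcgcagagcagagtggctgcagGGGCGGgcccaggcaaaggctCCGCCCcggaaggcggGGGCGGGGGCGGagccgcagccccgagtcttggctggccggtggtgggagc
Sdc1: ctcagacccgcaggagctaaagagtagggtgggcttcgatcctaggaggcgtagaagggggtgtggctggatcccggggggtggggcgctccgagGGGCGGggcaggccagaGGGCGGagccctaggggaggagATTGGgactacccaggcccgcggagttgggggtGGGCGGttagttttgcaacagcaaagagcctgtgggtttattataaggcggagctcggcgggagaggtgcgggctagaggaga

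Tnfrsf12a and Sdc1 shared GC boxes, with 4 in the Tnfrsf12a promoter and 3 in the Sdc1 promoter, while the Hbegf promoter held 0. At least 1 GC box was present in 30.5% of the 33469 RefSeq rat promoters cut to the same length. Hbegf and Sdc1 each held 1 CCAAT box, a motif found in 34% of all promoters. The NF-kB motif was present in Sdc1 alone of the 3, with 6.33% of all promoters holding it. In Tnfrsf12a, 2 overlapping EGR1 motifs (GCGNGGGCG, 4.29% of all promoters) lay across the 2 adjoining GC boxes nearest the start. The AP-1 motif (TGANTCA, 6.34% of all promoters), the cyclic AMP response element (TGACGTCA, 1.59%), the TATA box (TATAAA, 12.9%) and the serum response motif known as the CArG box (1.5%) were not found in these windows of the 3 genes. The GC content was 67.6% for Hbegf, 60.8% for Tnfrsf12a and 65.2% for Sdc1 against a median of 51.2% over all promoters. These matches describe letters in a window and are not binding sites.

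Hbegf was low and even in the 3 groups of cortex without a probe track and 7.98 times as high in the mean of the injured cortex as in ipsilateral sham. Levels are in CPM, counts scaled to the size of the library, with library sizes normalized over all 22 samples by the trimmed mean of M values (TMM). In ipsilateral PBBI cortex Hbegf stood at 60.3 CPM in rat 81, 7.17 in rat 83, 22.5 in rat 85, 74.6 in rat 88, 61.0 in rat 90 and 25.7 in rat 96, from 488 to 5185 counts. In ipsilateral sham cortex it stood at 3.80 CPM in rat 82, 4.96 in rat 84, 7.06 in rat 86, 4.98 in rat 91 and 5.43 in rat 94. Each PBBI rat lay above each sham rat, which also held for 3.5% of the 16104 genes tested on this side. Rat 83 did so only just, at 1.02 times the highest sham value, while rat 88 reached 10.6 times that value.

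On the contralateral side the Hbegf values of PBBI and sham rats overlapped. The PBBI values stood at 5.75 CPM in rat 81, 3.47 in rat 83, 3.86 in rat 85, 5.82 in rat 88, 4.78 in rat 90 and 3.25 in rat 96. The contralateral sham values were 4.21 CPM in rat 82, 6.21 in rat 84, 6.74 in rat 86, 3.79 in rat 91 and 4.74 in rat 94. Sham rats 84 and 86 were the highest of the 11, and the values of PBBI rats 83 and 96 were below each sham value. The order of the group means was ipsilateral PBBI (41.9 ± 26.9 CPM, SD, n = 6), ipsilateral sham (5.24 ± 1.18, n = 5), contralateral sham (5.14 ± 1.28, n = 5) and contralateral PBBI (4.49 ± 1.13, n = 6), and the last 3 differed from each other by less than their SD.

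Tnfrsf12a showed the same split between the hemispheres. In ipsilateral PBBI cortex the Fn14 transcript stood at 73.5 CPM in rat 81, 6.81 in rat 83, 49.0 in rat 85, 77.7 in rat 88, 40.9 in rat 90 and 28.7 in rat 96, from 463 to 5402 counts. Ipsilateral sham values were 3.65 CPM in rat 82, 5.09 in rat 84, 5.96 in rat 86, 3.04 in rat 91 and 4.25 in rat 94. Rat 83 was again the lowest of the injured group, 1.14 times the highest sham value, and rat 88 the highest, at 13.0 times it.

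Contralateral Tnfrsf12a varied more between rats than contralateral Hbegf. The PBBI values were 7.63 CPM in rat 81, 3.19 in rat 83, 5.22 in rat 85, 4.34 in rat 88, 2.56 in rat 90 and 2.56 in rat 96. The sham values were 3.45 CPM in rat 82, 4.74 in rat 84, 4.41 in rat 86, 2.56 in rat 91 and 8.32 in rat 94. The highest contralateral sample was thus a sham one, and the ipsilateral PBBI sample of rat 83, at 6.81 CPM, lay below it and below the contralateral sample of rat 81. The group means were 46.1 ± 26.9 CPM (SD, n = 6) in ipsilateral PBBI, 4.70 ± 2.20 (n = 5) in contralateral sham, 4.40 ± 1.16 (n = 5) in ipsilateral sham and 4.25 ± 1.96 (n = 6) in contralateral PBBI cortex, and the last 3 again differed by less than their SD.

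Sdc1 was the scarcest of the 3 transcripts without injury and had the largest fold change of the 3 beside it. In ipsilateral PBBI cortex syndecan-1 RNA stood at 209 CPM in rat 81, 10.8 in rat 83, 8.86 in rat 85, 115 in rat 88, 84.5 in rat 90 and 88.3 in rat 96, from 392 to 13341 counts. Ipsilateral sham values were 1.36 CPM in rat 82, 3.08 in rat 84, 2.83 in rat 86, 1.14 in rat 91 and 2.76 in rat 94, from 72 to 168 counts. The injured rats fell apart into 4 at 84.5 CPM or more and 2, rats 83 and 85, at 10.8 CPM or less, and the lowest of them, rat 85, still reached 2.88 times the highest sham value.

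The contralateral values of Sdc1 were 5.98 CPM in PBBI rat 81, 4.01 in rat 83, 1.28 in rat 85, 3.02 in rat 88, 1.67 in rat 90 and 1.18 in rat 96. In contralateral sham cortex they were 1.19 CPM in rat 82, 2.84 in rat 84, 2.99 in rat 86, 2.28 in rat 91 and 2.14 in rat 94, from 64 to 174 counts. PBBI rats 81, 83 and 88 lay above each contralateral sham rat and rat 96 lay below each of them. The group means were 86.0 ± 74.3 CPM (SD, n = 6) in ipsilateral PBBI, 2.86 ± 1.89 (n = 6) in contralateral PBBI, 2.29 ± 0.714 (n = 5) in contralateral sham and 2.24 ± 0.909 (n = 5) in ipsilateral sham cortex. As for the other two genes, the last 3 of these differed by less than their SD.

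**Figure D1:**
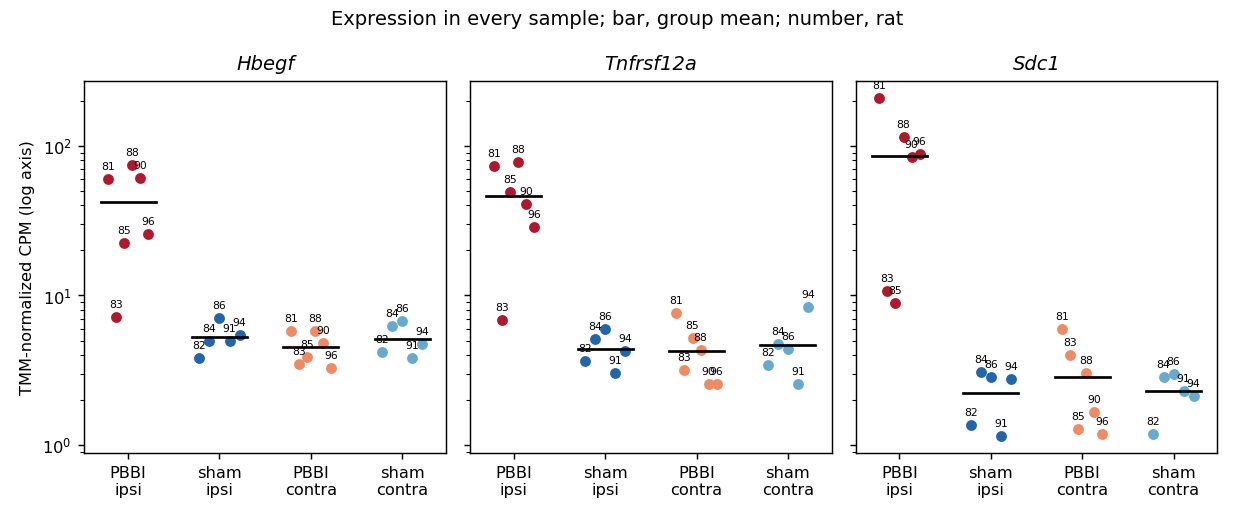
CPM on a log axis of Hbegf, Tnfrsf12a and Sdc1 in each of the 22 samples, grouped by treatment and hemisphere, with the rat number above each point and a bar at the group mean. The ipsilateral PBBI samples span 7.17 to 74.6 CPM for Hbegf, 6.81 to 77.7 for Tnfrsf12a and 8.86 to 209 for Sdc1, and the other 3 groups overlap each other in each panel.

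In the fit of edgeR across 16104 genes, the ipsilateral log2 fold change of PBBI over sham was 3.00 ± 0.521 (SE) for Hbegf, 3.39 ± 0.523 for Tnfrsf12a and 5.27 ± 0.834 for Sdc1. Without rat 85 these differences were 3.12, 3.37 and 5.50, and without rat 81 they were 2.87, 3.21 and 4.78. In that fit, at a threshold of 0.05 on the adjusted p, 4.09% of genes were higher in PBBI and 0.584% lower, and in 3.5% of genes each PBBI rat lay above each sham rat. The number of genes called in both directions together was 753, and it was 2186 without rat 85. The 3 genes were chosen by this contrast, so nothing is read from their place in it. In bulk tissue a change in the RNA per cell and a change in the number of cells that carry it cannot be told apart.

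Marker genes of other cells differed in the same ipsilateral samples. A gene could be named in the count table only if the study had called it on these samples, so the named markers had been picked for a difference and their values are given without a test. Of the microglia and macrophage list, 4 of 10 genes could be named, and they went different ways. Itgam ranged from 7.27 to 72.0 CPM in ipsilateral PBBI against 5.13 to 8.27 CPM in ipsilateral sham cortex, the scavenger receptor gene Msr1 from 4.77 to 51.4 against 0.576 to 1.18 CPM, and Cd163 from 1.15 to 3.61 against 0.428 to 1.04 CPM. Tmem119, a gene of resident microglia, was lower, with a mean of 16.7 ± 6.52 CPM (SD, n = 6) in PBBI against 31.6 ± 6.30 (n = 5) in sham cortex. The summed level of the 4, from 34.2 to 126 CPM against 34.6 to 49.4 CPM, adds members that differed in opposite directions.

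Of the monocyte and neutrophil list, 8 of 10 could be named. Cd14 ranged from 5.95 to 104 CPM in ipsilateral PBBI against 0.793 to 1.25 CPM in sham, and Fcgr3a from 15.0 to 46.1 against 1.79 to 12.5 CPM, while S100a8, S100a9 and Csf3r overlapped between the groups. The neutrophil protease gene Elane was at 0 in each ipsilateral sham sample and at 0.486 CPM or less in the injured ones. The summed level of the 8 ranged from 35.3 to 306 CPM against 10.1 to 55.9 CPM in sham. The part of these cells in the levels of Hbegf, Tnfrsf12a and Sdc1 was not tested.

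Of the epithelial list, which marks cells in which syndecan-1 is best known, only the keratin gene Krt14 could be named, and it ranged from 0 to 1.82 CPM in ipsilateral PBBI and was at 0.0729 CPM or less in the other 3 groups. Vwf, the only endothelial marker that could be named of 6, ranged from 23.3 to 49.4 CPM in ipsilateral PBBI against 10.4 to 19.7 CPM in sham. Of the astrocyte list 3 of 8 could be named, and they too went different ways: the log2 fold change was 2.99 for Gfap, -0.96 for Aldh1l1 and -1.53 for Gjb6. Their summed level, nearly all of it Gfap, ranged from 1831 to 6846 CPM in ipsilateral PBBI and from 386 to 947 CPM in sham cortex. The part of these cells in the 3 transcripts was not tested.

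Levels can be compared between genes only per length, and the gene lengths in the count table were 2305 bases for Hbegf, 963 for Tnfrsf12a and 3067 for Sdc1. As RPKM, the CPM divided by the gene length in kilobases, the mean level in ipsilateral sham cortex was 4.57 for Tnfrsf12a, 2.28 for Hbegf and 0.729 for Sdc1. In ipsilateral PBBI cortex it was 47.9 RPKM for Tnfrsf12a, 28.0 for Sdc1 and 18.2 for Hbegf. Tnfrsf12a was therefore the highest of the 3 per length in both groups, while Sdc1 passed Hbegf in the injured cortex.

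The change of order was seen in most injured rats, but by a small margin in several. Sdc1 lay above Hbegf in RPKM in 5 of 6 ipsilateral PBBI samples and in 0 of the 5 ipsilateral sham, 0 of the 6 contralateral PBBI and 0 of the 5 contralateral sham samples. In the injured cortex Sdc1 was at 2.60 times Hbegf in rat 81, 1.13 in rat 83, 1.16 in rat 88, 1.04 in rat 90 and 2.58 in rat 96. These ratios rest on the gene lengths in the count table. The exception was rat 85, where Sdc1 was at 0.296 times Hbegf, within the range of sham. The ratio of Sdc1 to Tnfrsf12a in RPKM was between 0.117 and 0.204 in ipsilateral sham cortex, and in the injured cortex it was 0.893 in rat 81, 0.498 in rat 83, 0.0568 in rat 85, 0.463 in rat 88, 0.649 in rat 90 and 0.965 in rat 96. The ratio of Hbegf to Tnfrsf12a, from 0.192 to 0.623 in ipsilateral PBBI, overlapped its range of 0.407 to 0.683 in ipsilateral sham cortex.

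The 6 injured cortices thus did not give the 3 genes in fixed proportion. Rat 83 was low for each gene, at 1.37 times the mean of the ipsilateral sham rats for Hbegf, 1.55 times for Tnfrsf12a and 4.82 times for Sdc1. Rat 85 was low for Sdc1, at 3.96 times that mean, and intermediate for Hbegf, at 4.29 times, but had the third highest Tnfrsf12a, at 11.1 times. In the other 4 rats Sdc1 was between 37.8 times (rat 90) and 93.5 times (rat 81) the sham mean, above the ratio of Hbegf and of Tnfrsf12a in each.

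Rats 83 and 85 also differed in some of their markers. Itgam was at 25.3 CPM in rat 83 and at 7.27 CPM in rat 85, the latter inside the sham range, and Msr1 was at 16.9 and 4.77 CPM, both above the sham range. Cd163, by contrast, was highest of the 6 in rat 85, at 3.61 CPM. The neutrophil and monocyte genes S100a8 and S100a9 were at 1.10 and 3.82 CPM in rat 83 and at 85.5 and 81.9 CPM in rat 85. Csf3r did not follow them: it was at 5.84 CPM in rat 83 and at 2.37 CPM, the lowest of the 6, in rat 85, both inside the sham range. Cxcr2 was low in both rats, at 0.0294 CPM in rat 83 and 0.0452 CPM in rat 85. Ccr2 was at 0.118 CPM in rat 83 and at 0 in rat 85. The part of these cells in the low Sdc1 of either rat was not tested.

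**Figure D2:**
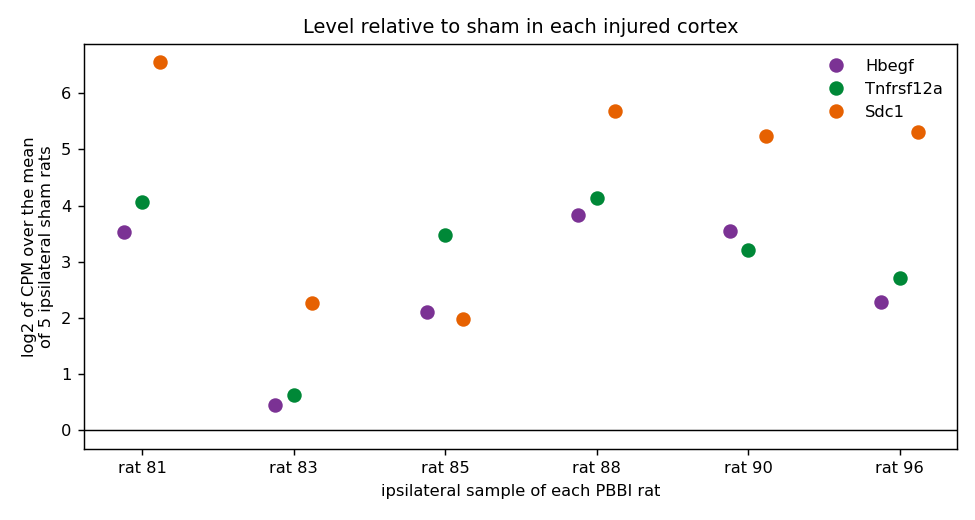
Level of Hbegf, Tnfrsf12a and Sdc1 in the ipsilateral cortex of each PBBI rat as the log2 ratio of its CPM to the mean of the 5 ipsilateral sham rats, with the line at 0 marking that mean. Sdc1 lies above the other two in 5 of the 6 rats, and in rat 85 it lies below both.

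Because both hemispheres came from the same rat, each rat also serves as its own comparison. Within PBBI, each of the 3 genes was higher on the ipsilateral side in 6 of 6 rats. This holds for 10.7% of the 15973 genes of that comparison, and it shares the ipsilateral PBBI samples with the contrast that chose the genes, so it is a description as well. The mean of the differences in log2 CPM between the sides was 2.88 ± 1.00 (SD, n = 6) for Hbegf, 3.19 ± 1.10 for Tnfrsf12a and 4.39 ± 1.87 for Sdc1.

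For Hbegf the ratio of ipsilateral to contralateral CPM was 10.5 in rat 81, 2.07 in rat 83, 5.83 in rat 85, 12.8 in rat 88, 12.7 in rat 90 and 7.90 in rat 96. For Tnfrsf12a it was 9.63 in rat 81, 2.13 in rat 83, 9.38 in rat 85, 17.9 in rat 88, 15.9 in rat 90 and 11.2 in rat 96. For Sdc1 it was 34.9 in rat 81, 2.69 in rat 83, 6.92 in rat 85, 38.0 in rat 88, 50.5 in rat 90 and 74.6 in rat 96. Rat 83 had the lowest ratio of the 6 for each gene. The highest ratio fell to rat 88 for Hbegf and Tnfrsf12a and to rat 96 for Sdc1, whose contralateral level in rat 96 was the lowest of its group.

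In sham rats the sides differed by less than the spread between rats. The mean difference in log2 CPM was 0.036 ± 0.280 (SD, n = 5) for Hbegf, with 3 of 5 rats higher on the ipsilateral side. For Tnfrsf12a it was -0.020 ± 0.546, with 4 of 5 higher, and for Sdc1 it was -0.076 ± 0.530, with 3 of 5 higher. The largest single differences were -0.97 for Tnfrsf12a in rat 94 and -0.98 for Sdc1 in rat 91, both toward the contralateral side.

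**Figure D3:**
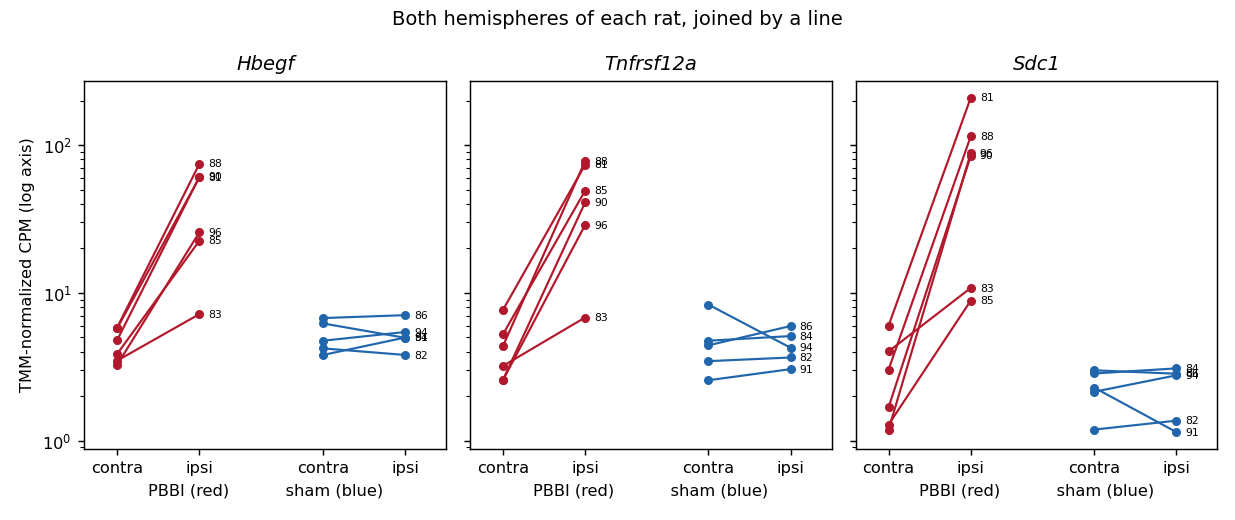
CPM on a log axis of Hbegf, Tnfrsf12a and Sdc1 in the contralateral and the ipsilateral cortex of each rat, joined by a line and labelled with the rat number, with PBBI rats in red and sham rats in blue. Each of the 6 red lines goes up in each panel, least in rat 83, and of the 5 blue lines 3 go up for Hbegf, 4 for Tnfrsf12a and 3 for Sdc1.

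In edgeR's model without the pairing, the ipsilateral minus contralateral log2 difference within PBBI was 3.22 ± 0.475 (SE) for Hbegf, 3.44 ± 0.512 for Tnfrsf12a and 4.91 ± 0.787 for Sdc1. Within sham it was 0.030 ± 0.246, -0.10 ± 0.331 and -0.032 ± 0.360 in the same order. The injury effect on the ipsilateral side minus that on the contralateral side was 3.19 ± 0.558, 3.53 ± 0.628 and 4.95 ± 0.892 on the log2 scale. These comparisons share samples with each other and with the contrast that chose the genes, and they are given as sizes alone.

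The contralateral cortex was not used to choose the genes, and there the question whether a right frontal injury is followed by a change on the other side could be tested. None of the 3 genes passed. For Hbegf the contralateral log2 fold change of PBBI over sham was -0.19 ± 0.241 (SE, 95% confidence interval -0.71 to 0.32), with an adjusted p of 1.00 in edgeR's quasi-likelihood test and p = 0.377 in the two-sided exact permutation test over 462 splits of the 11 rats. For Tnfrsf12a it was -0.15 ± 0.361 (interval -0.92 to 0.63), with an adjusted p of 1.00 in edgeR and p = 0.699 in the exact permutation test. For Sdc1 it was 0.32 ± 0.429 (interval -0.60 to 1.24), with an adjusted p of 1.00 in edgeR and p = 0.775 in the exact permutation test.

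As folds, the intervals ran from 0.610 to 1.25 for Hbegf, from 0.527 to 1.55 for Tnfrsf12a and from 0.658 to 2.36 for Sdc1, so that a contralateral doubling lay inside the interval of Sdc1 and outside those of the other two. The contralateral fit called 0% of its 15907 genes by edgeR, with 2.3% at an unadjusted p under 0.05 and 48.8% of all genes above 0. The unadjusted p of the 3 genes was 0.435 for Hbegf, 0.689 for Tnfrsf12a and 0.471 for Sdc1. Of the 15907 genes, DESeq2 without its prior called 3 and limma's voom called 1.

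The sign of the contralateral difference of Sdc1 and of Tnfrsf12a rested on single libraries. Without PBBI rat 81, which had the highest contralateral Sdc1, the log2 fold change of Sdc1 was -0.046, and without sham rat 94, which had the highest contralateral Tnfrsf12a, that of Tnfrsf12a was 0.18. For Hbegf it stayed below 0 when any 1 rat was left out, from -0.29 to -0.078. With the PFC-titled contralateral samples of rats 81 and 82 left out, it was -0.35 for Hbegf, -0.50 for Tnfrsf12a and -0.21 for Sdc1, with an adjusted p of 1.00 for each in edgeR. The contralateral sample of rat 81 was also the highest of its group for Gfap (4135 CPM against 502 in the lowest), Itgam (25.2 against 6.35), Msr1 (7.78 against 0.905), Cd14 (6.91 against 0.748) and Vwf (36.6 against 13.8) and the lowest for Tmem119 (20.3 CPM against 53.1 in the highest). Their part in the Sdc1 level of this sample was not tested.

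The genes whose levels ran most like each member were found by Pearson's r of log2 CPM over the 22 samples. Each member was compared with 16586 other genes, and those given were among the nearest 3 of all of them, named or not. The points share the split between injured and other cortex, so r is a description. For Hbegf they included the coagulation factor gene F7 (r = 0.958) and Tnfrsf12a itself (r = 0.954). For Tnfrsf12a they were Ybx3 (r = 0.970), the protein disulfide isomerase gene P4hb (r = 0.965) and Tmbim1 (r = 0.964). For Sdc1 they were Tgfbi, which codes for a matrix protein induced by TGF-beta (r = 0.961), the Fc receptor gene Fcgr2b (r = 0.958) and Cd14, the lipopolysaccharide co-receptor of myeloid cells (r = 0.958).

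Subtracting the mean of each of the 4 groups left the variation between rats. This variation was widest in the 6 ipsilateral PBBI samples. There the SD of log2 CPM was 1.28 for Hbegf, 1.29 for Tnfrsf12a and 1.90 for Sdc1. The largest SD in any other group was 0.363, 0.626 and 0.938 in the same order. The r values with group means subtracted therefore rest mostly on the injured samples. The nearest genes were then F7 (r = 0.922), Eif4e2 (0.907) and Glis2 (0.900) for Hbegf. For Tnfrsf12a they were Ybx3 (0.926), Myl12a (0.884) and P4hb (0.878), and for Sdc1 they were Ncr2 (0.870), Fcgr2b (0.863) and Cd14 (0.858). Among the 3 members r was 0.801 between Hbegf and Tnfrsf12a, 0.748 between Hbegf and Sdc1 and 0.581 between Tnfrsf12a and Sdc1, while over the 22 samples with group means kept these were 0.954, 0.939 and 0.904. The members most alike were thus Hbegf and Tnfrsf12a, and the least alike Tnfrsf12a and Sdc1, on both measures. This order was not tested without rat 85, whose injured cortex had 8.86 CPM of Sdc1 beside 49.0 CPM of Tnfrsf12a.

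The levels of these neighbours in the injured rats show what lies behind the correlations. F7 and Ncr2 were scarce, so their r rests on values near 0 in most samples. F7 was at 0 to 5.68 CPM in ipsilateral PBBI and at 0.179 CPM or less in the other groups. Ncr2 was at 0.0678 to 3.12 CPM in ipsilateral PBBI and at 0.424 CPM or less in the others. Cd14 stood at 104 CPM in rat 81 and at 5.95 CPM in rat 83, 11.9 in rat 85, 35.6 in rat 88, 49.5 in rat 90 and 20.1 in rat 96, so that rats 83 and 85 were the lowest as they were for Sdc1. Tgfbi was at 122 CPM in rat 81, 8.85 in rat 83 and 9.08 in rat 85. Myl12a and Tmbim1 followed Tnfrsf12a instead: in rat 85 Myl12a was at 147 CPM, the highest of the 6, and Tmbim1 was at 256 CPM, while in rat 83 they were the lowest of the 6, at 34.8 and 47.4 CPM.

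The partners of the 3 proteins could be followed only in part, again because only genes that the study had called on these samples could be named. That choice alone sets the named genes apart from the rest, so neither the counts, the medians nor the adjusted p given below for them are independent evidence of a change. Neither the EGF receptor gene Egfr nor the TWEAK gene Tnfsf12 could be named, and they were not analysed here. Of the 24 EGF family genes listed beside Hbegf, 5 could be named, 4 were tested and 3 rose in ipsilateral PBBI cortex, beside the 4.09% of all genes called higher, with a median log2 fold change of 2.57 against -0.019 over all genes tested. The 3 were Cd44, whose product can carry the HB-EGF precursor and its protease at the cell surface (129 ± 75.3 against 10.7 ± 2.27 CPM, log2 fold change 3.59, edgeR adjusted p = 0.00243), the ligand gene Nrg4 (2.96, adjusted p = 0.00575) and Rhbdf2, which codes for an iRhom that brings the sheddase ADAM17 to the surface (2.19, adjusted p = 0.0177). Errfi1, a feedback inhibitor of the EGF receptor, did not pass, at 0.99 (adjusted p = 0.0829). The ligand gene Ereg, too low to be tested, was at 0 in each sham sample of both hemispheres and at 0 to 0.658 CPM in ipsilateral PBBI.

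Of the 14 genes listed around TWEAK and Fn14 beside Tnfrsf12a, 5 could be named and tested. Of these, 2 rose, beside the 4.09% of all genes called higher, and the median log2 fold change was 1.05. Birc3, which codes for an inhibitor of apoptosis bound to TRAF adaptors, was higher by 2.03 (edgeR, adjusted p = 0.0187), and Nfkb2, which codes for the precursor of the noncanonical NF-kB subunit, by 1.21 (adjusted p = 0.0405). Relb (1.05, adjusted p = 0.103), Nfkbia (0.91, adjusted p = 0.0949) and Rela (0.84, adjusted p = 0.0885) did not pass, and without rat 85 Rela did (0.94, adjusted p = 0.0245).

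Of the 31 heparan sulfate genes listed beside Sdc1, 3 could be named and tested, and 2 rose, beside the 4.09% of all genes called higher. Sdc4, the syndecan of focal adhesions, rose from 51.3 ± 10.4 CPM in ipsilateral sham to 149 ± 61.4 CPM in PBBI cortex (log2 fold change 1.54, edgeR adjusted p = 0.0178), and the sulfotransferase gene Hs2st1 rose by 0.79 (adjusted p = 0.0399). The extracellular sulfatase gene Sulf1 was at 0.83 and did not pass (adjusted p = 0.119), although it did without rat 85 (0.94, adjusted p = 0.0309). Sdc4 differed from Sdc1 in rat 85, where it stood at 182 CPM, the second highest of the 6 injured rats, while Sdc1 was at its lowest.

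Of the 11 genes for proteases that shed syndecan-1 and their inhibitors, 4 could be named and 3 were tested, with a median of 2.55. Of these 3, 2 rose, beside the 4.09% of all genes called higher. Mmp9, a gelatinase, rose by 2.55 (edgeR, adjusted p = 0.0182), from 4.58 ± 2.56 to 26.8 ± 18.2 CPM, and the inhibitor gene Timp1 rose by 5.37 (adjusted p = 0.00132), from 5.41 ± 2.65 to 225 ± 134 CPM. Mmp3 did not pass, at 1.66 (adjusted p = 0.0800), and Mmp7 was too low to be tested. Timp1, an inhibitor gene of this list, thus changed in the same direction as Mmp9, and the effect on shedding was not tested.

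Genes that signaling through ERK induces, which the EGF receptor is known to drive, were the fullest list, with 9 of 21 named and tested. Their median was 2.26 against -0.019 over all genes tested. As in the other lists, the named genes had been called by the study on these samples. Of the 9, 5 rose, beside the 4.09% of all genes called higher. The 5 that rose were the AP-1 gene Fosl1 (5.11, edgeR adjusted p = 0.00575), the ERK phosphatase gene Dusp5 (3.45, adjusted p = 0.0272), the urokinase receptor gene Plaur (3.15, adjusted p = 0.00609), Myc (2.84, adjusted p = 0.00558) and the feedback inhibitor gene Spry1 (1.25, adjusted p = 0.0415). Fosb (2.26), Ier3 (1.67), Jun (1.19) and Phlda1 (0.96) did not pass, and without rat 85 Jun did (1.23, edgeR adjusted p = 0.0418). Without that rat the log2 fold change was smaller for Dusp5 (2.88), Myc (2.79), Ier3 (1.33) and Phlda1 (0.58). It was larger for Fosl1 (5.25), Plaur (3.22), Fosb (2.43) and Spry1 (1.35). Dusp5 also varied widely among the injured rats. It ran from 3.54 CPM in rat 96 and 3.94 in rat 83, inside the sham range of 1.58 to 4.52, to 86.9 CPM in rat 85.

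On the contralateral side 0 genes of the 5 lists passed the test by edgeR. Of the genes tested there, 3 of 4 of the EGF family, 2 of 5 around TWEAK and Fn14, 3 of 3 of the heparan sulfate genes, 2 of 3 of the sheddases and their inhibitors and 2 of 9 of the ERK-induced genes were above 0, beside the share of 48.8% over all genes. The count around TWEAK and Fn14 rested on single rats: it was 5 of 5 without PBBI rat 85 or without sham rat 94, and 1 of 5 without sham rat 82 or without sham rat 91. For the ERK-induced genes it was 0 of 9 without PBBI rat 81 and 1 of 9 without PBBI rat 88.

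**Figure D4:**
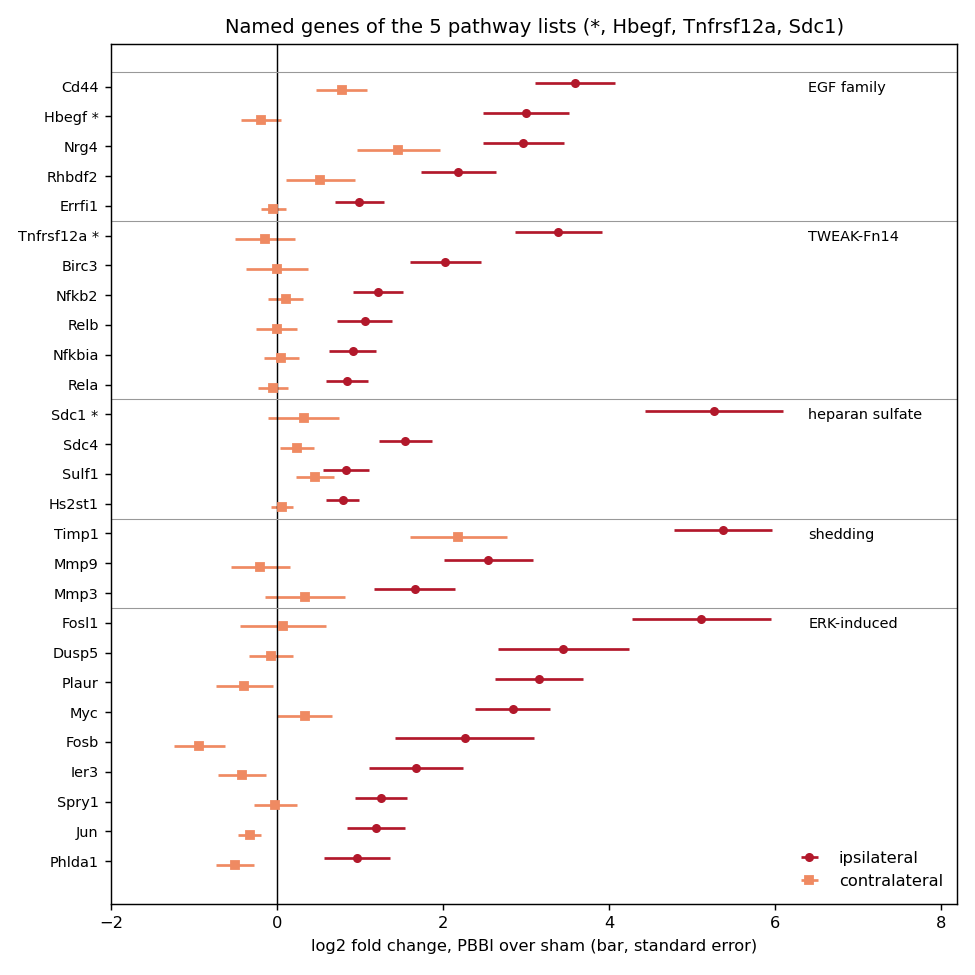
Log2 fold change of PBBI over sham with its standard error, ipsilateral in dark red circles and contralateral in orange squares, for Hbegf, Tnfrsf12a and Sdc1 (starred) and the genes of the 5 pathway lists that could be named and tested. The ipsilateral points run from 0.79 for Hs2st1 to 5.37 for Timp1, and the contralateral ones from -0.94 for Fosb to 2.19 for Timp1.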

How the data were processed

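RNA was isolated from ipsilateral and contralateral cortex of 11 rats (6 PBBI, 5 sham). The authors removed ribosomal RNA, made strand-specific libraries, sequenced them with paired reads, aligned these to Rnor 6.0 with STAR 2.4.2a and counted them per gene with featureCounts 1.4.3-p1 (versions per the submitters' processing notes). The deposited values are raw counts without scaling, with 1 column for each sample and a gene length that is in another unit, bases. Strand handling and multimapping reads in counting are not given in the sources used here. No coordinates of the count table's build are printed, and the protein sequences were not used here.

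Symbols came from the study's tables of called genes, which pair 1822 identifiers. The members and lists were chosen with earlier results of these data known. Tests used edgeR 4.0.16 (quasi-likelihood) under R 4.3.3 (TMM, filterByExpr, Benjamini-Hochberg over all genes, threshold 0.05), run on each hemisphere separately as the study did. CPM used the 16587 genes kept over 22 samples, log2 CPM a prior count of 2, and the standard error was the size of the log2 fold change over the square root of F. A two-sided exact permutation test of the difference in mean log2 CPM was run beside it for the contralateral values, where the smallest possible p is 0.00216. The alternatives tried were voom with quality weights (limma 3.58.1), DESeq2 1.42.0 without a prior or with the normal prior, DESeq2's size factors in edgeR, genes unfiltered or held to 10 counts in each sample, a common fit of all 22 samples, the rat as a replicate block, and leaving out each rat. Lists without rat 85, contralateral list counts under the alternatives and contralateral fits without the PFC-titled samples were added after the data were seen. Scripts were tested on simulated counts.

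The animal number in the labels marks the 2 samples of the same rat. Deviations from the group means correlated between them by 0.246 to 0.758 in the 11 rats, so the samples are paired. Genes named are the members, the 3 named genes with the highest r to each member on each measure, and the list genes that could be named, except items that are not reported here. Surgeries were done in weekly groups, and the week was not used here.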

Additional observations from a re-analysis of the deposited data

How the results depend on the processing

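Of 240 values of Hbegf, Tnfrsf12a and Sdc1 recomputed under the alternatives, 233 kept their direction and their side of the threshold or moved by less than the spread between rats, and 0 contralateral values crossed the threshold, with adjusted p from 0.474 to 1.00 for Hbegf, 0.636 to 1.00 for Tnfrsf12a and 0.812 to 1.00 for Sdc1. With 1 rat left out, the contralateral difference ranged from -0.40 to 0.18 for Tnfrsf12a and from -0.046 to 0.48 for Sdc1. It changed sign for Sdc1 with voom (-0.13), with the samples titled PFC left out (-0.21) and without PBBI rat 81 (-0.046) and for Tnfrsf12a without sham rat 94 (0.18). With DESeq2's normal prior, which draws fold changes toward 0 by construction, Sdc1 moved to 3.64 for ipsilateral PBBI over sham, 3.23 for ipsilateral over contralateral within PBBI and 3.45 for the injury effect between sides. With 1 rat left out, the ipsilateral difference ranged from 2.76 to 3.22 for Hbegf, 3.18 to 3.62 for Tnfrsf12a and 4.78 to 5.50 for Sdc1.

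With the rat as a replicate block, the paired difference between sides within PBBI was 2.93 ± 0.358 (SE) for Hbegf, 3.26 ± 0.396 for Tnfrsf12a and 4.54 ± 0.71 for Sdc1, and no direction changed within PBBI or for the injury effect.

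The count of contralateral genes past the threshold, 0 by edgeR, was 3 with DESeq2 without its prior, 1 with voom and from 0 to 1 with 1 rat left out (1 without PBBI rat 96). The ipsilateral count, 753 by edgeR, was 1639 with DESeq2 without its prior, 1628 with it, 5014 with voom and 1655 with all 22 samples in the same fit. It ranged from 316 (without sham rat 91) to 2186 (without PBBI rat 85). The cause was not tested. The contralateral sham samples held 64 to 174 counts of Sdc1, the fewest of the 3 genes, and the interval of its contralateral difference was the widest of the 3.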

Other observations

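Several partners of the 3 genes had contralateral values that differed at an unadjusted p under 0.05 although 0 genes passed after adjustment (edgeR, adjusted p = 1.00 for each gene named here, against 2.3% of the 15907 contralateral genes at that unadjusted level). These 6 partners were picked after their values were seen. Timp1, a metalloproteinase inhibitor gene of the shedding list, had a contralateral log2 fold change of 2.19 ± 0.580 (SE, unadjusted p = 0.00218 in edgeR). It stood at 67.8 CPM in PBBI rat 81, 13.7 in rat 83, 5.64 in rat 85, 20.4 in rat 88, 15.1 in rat 90 and 7.31 in rat 96, against 3.13 to 7.83 CPM in contralateral sham cortex. Rats 85 and 96 were thus inside the sham range and the other 4 above it. Nrg4 was at 1.46 ± 0.502 (unadjusted p = 0.0117 in edgeR) and Cd44 at 0.78 ± 0.307 (unadjusted p = 0.0240 in edgeR). As for Timp1, the PFC-titled sample of rat 81 was the highest contralateral PBBI sample for Nrg4 (0.766 CPM) and Cd44 (30.9 CPM). The fold changes of these genes without the PFC-titled samples are not given.

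Some markers of other cells, picked after their values were seen, were higher in the same contrast. None of them passed after adjustment (adjusted p = 1.00 for each in edgeR). On the log2 scale they were higher by 1.57 for Gfap (unadjusted p = 0.00339 in edgeR), 1.83 for Msr1 (0.00814), 1.48 for Cd14 (0.0154) and 1.00 for Fcgr3a (0.0303). The PFC-titled sample of rat 81 was the highest contralateral PBBI sample for Gfap (4135 CPM), Msr1 (7.78) and Cd14 (6.91). For Fcgr3a rat 88 was the highest, at 14.4 CPM. The fold changes of these markers without the PFC-titled samples are not given. The other markers tested in this contrast had an unadjusted p above 0.05 in edgeR. They were at -0.22 for Aldh1l1, 0.13 for Gjb6, 0.17 for Tmem119, 0.82 for Itgam and 0.60 for Cd163. S100a8 was at 0.41, S100a9 at 0.38, Csf3r at 0.39 and Vwf at 0.46. The part of these cells in the values of Timp1, Nrg4 and Cd44 was not tested.

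Of the genes induced through ERK, 3 had negative contralateral values at that unadjusted level. Fosb was at -0.94 ± 0.310 (unadjusted p = 0.00925 in edgeR), Phlda1 at -0.51 ± 0.227 (0.0418) and Jun at -0.33 ± 0.140 (0.0331). Fosb ranged from 3.01 to 8.11 CPM in contralateral PBBI and from 4.99 to 12.8 CPM in contralateral sham cortex, and the groups overlapped. Of the 9 named genes of this list, Myc (0.33) and Fosl1 (0.071) were above 0 contralaterally, and this count ranged from 0 (without PBBI rat 81) to 3 (without PBBI rat 83) with 1 rat left out.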
